A study of Mus musculus with 6 samples.

Results

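Border macrophages and microglia of healthy mouse brain were compared within the same sorted samples, using 1005 border cells and 7395 microglia out of 9907 barcodes from healthy brain and 17362 in the whole series. The classes were cut from each cell's own RNA in unique molecular identifiers (UMIs). The border sum (B) added the UMIs of Mrc1, Pf4, Cbr2, Cd163 and Lyve1. The microglial sum (M) added those of Tmem119, Olfml3, Gpr34, Crybb1, Golm1 and Slc2a5. A border cell had B of at least 5 and more than 2 times M, and a microglial cell had M of at least 3 and more than 2 times B. Both had at most 1 UMI over Cd3d, Cd3e, Cd3g, Trac, Nkg7 and Cd79a, genes of T, NK and B cells. The 17 genes of this rule chose the cells, so their values describe the classes and were not tested.

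Microglia are the macrophages of the brain tissue itself, while border macrophages sit along blood vessels, in the meninges and at the choroid plexus. Both are kept alive by signals through the Csf1 receptor, and the program of microglia also depends on TGF-beta and the transcription factor Sall1. Border macrophages are known for scavenger and lectin receptors that take up material from blood and cerebrospinal fluid.

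CD45+ cells, which are cells of blood-cell origin, were sorted from brain and profiled with droplet 3' single-cell RNA sequencing. Healthy brain was labelled wild type for Trp53 and Rbpj (replicates 1 and 2). The other 4 libraries came from micro-dissected early gliomas marked by a Cre-dependent GFP reporter, 2 with Trp53 knocked out and Rbpj wild type and 2 with Trp53 and Rbpj both knocked out. According to the design text, tissue was pooled from 9 healthy brains, from 15 tumours of the control kind and from 9 with Rbpj deleted, whereas the protocol describes 1 mouse per well. Strain, age and the driver of Cre are not given in the sources used here. The sources used here do not give how mice were divided over the libraries. The healthy p-values measure how the difference between border cells and microglia varied between 2 libraries, with information on spread shared over genes. Those of the tumour comparison rest on 4 libraries. This variation between libraries may be technical in part.

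Healthy replicate 1 held 55229031 counts in 7263 barcodes and replicate 2 held 17430763 in 2644. The border cells numbered 703 and 302, with medians of 6132 and 7931 UMIs, and the microglia numbered 5441 and 1954, with medians of 5167 and 6021.5 UMIs. Of the healthy barcodes outside both classes, 688 and 239 had more than 1 lymphoid UMI, and 206 and 12 passed both minimums with neither sum more than 2 times the other. No doublet caller was run. Of the gated healthy cells, 70 shared their barcode sequence with another library.

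Border cells made up 11.4% of the gated cells in replicate 1 (exact binomial 95% interval 10.7 to 12.3) and 13.4% in replicate 2 (12.01 to 14.86). Their mean share was 12.4% ± 1.37 (SD, n = 2), and the intervals cover counting error only. The share depends on the sort and moved with depth. Among cells of 4000 to 8000 UMIs it was 9.64% in replicate 1 and 7.36% in replicate 2.

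The genes of the rule separated as the rule made them. In UMIs as a share of the class sum, scaled to 1000000 (CPM), Mrc1, the mannose receptor, stood at 3726 and 4181 in border cells of replicates 1 and 2 and at 56.2 and 30.5 in microglia. Tmem119, a surface protein of microglia, stood at 2280 and 2443 CPM in microglia and at 349 and 122 CPM in border cells, so replicate 1 had the higher microglial level in border cells. At the border threshold, 5 barcodes had B of exactly 5 and 8 barcodes fell just outside with B of 4, and Ms4a7 stood at 593 and 211 CPM in them. At the microglial threshold, 71 barcodes had M of exactly 3 and 73 had M of 2, with Siglech, a sialic acid-binding lectin of microglia, at 616 and 396 CPM.

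Markers that the rule did not use were also called by class. Of 18 further border macrophage markers tested, 17 were higher in border cells and none was lower, and of 18 microglial markers 14 were higher in microglia and 1 in border cells. Over all 11720 genes tested, 19.8% were called higher in border cells (2322 genes) and 15.9% higher in microglia (1864 genes), by edgeR's quasi-likelihood test paired by library at an adjusted p under 0.05. In total 4186 genes, or 35.7%, were called, and 62.2% of the genes tested had libraries of the classes that did not overlap. A difference of over 1 on the log2 scale was reached by 1234 of the genes called toward border cells (10.5% of those tested) and 889 of those toward microglia (7.59%). DESeq2 called 2552 genes, which was 13.3% higher in border cells and 8.52% higher in microglia. Without healthy replicate 1 the count was 2468 and without replicate 2 it was 1954, in fits of all libraries that take the lone healthy library to vary like the tumour libraries. The classes were cut from the RNA of these same cells, so these counts describe how far 2 chosen ends lie apart.

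Marker genes of other lineages differed between the classes in part. The 7 neutrophil markers summed to 821 and 1888 CPM in border cells and 856 and 542 in microglia, none at 0. The 7 monocyte markers summed to 146 and 285 CPM against 78.5 and 89.4, with Plac8, Ms4a4c and Ly6c2 called higher in border cells (Ly6c2 without replicate 2, 1.19, adjusted p = 0.283). The 8 markers of conventional dendritic cells summed to 73.9 and 149 CPM against 26.5 and 25.8. The 7 endothelial markers summed to 28.4 and 6.02 CPM against 91.6 and 22.5, and the 6 B-cell markers to 350 and 259 CPM against 416 and 392, with Ms4a1 at 0 throughout. The 6 cycling genes summed to 128 and 206 CPM against 25.5 and 52.1. Their part in the results was not tested. Markers of T, NK, B, neutrophil, dendritic, endothelial, mural and fibroblast cells were also summed per cell. The sum reached at least 3 UMIs in 62.0% and 62.9% of border cells and 77.2% and 77.1% of microglia. It includes Csf3r, Cd79b and Pecam1, which were called higher in microglia. Whether these UMIs came from other cells was not tested.

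The genes that lay furthest toward border cells included a transglutaminase, a secreted phospholipase and several pattern receptors. F13a1, the A subunit of coagulation factor XIII, stood at 381 and 373 CPM in border cells and at 3.61 and 0.506 in microglia. Its fitted difference was 7.34 ± 0.72 (SE) on the log2 scale, adjusted p = 0.0199. Pla2g2d, a secreted phospholipase, stood at 80.2 and 75.2 CPM against 0.711 and 0.253 (7.07 ± 0.25, adjusted p = 3.32e-05). Both genes were chosen by a rule that asks for classes that do not overlap. Clec10a, a galactose-type lectin, stood at 201 and 272 CPM against 2.85 and 1.27 (6.61 ± 0.43, adjusted p = 0.00611), and 14.9% of its 31-base words occur in other genes such as Mgl2, so reads could be split between them. Fcna, a ficolin that binds sugars on microbes, stood at 27.0 and 29.3 CPM against 0.341 and 0. Lbx1, a homeobox gene better known from muscle and spinal cord, stood at 40.1 and 28.2 CPM against 0.398 and 0. Folr2, a folate receptor, stood at 26.6 and 22.6 CPM against 0.228 and 0, with 56.9% of its words shared with another gene. In these 3 genes microglia of replicate 2 had no UMI at all.

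Other leading genes kept their direction but not always their call when 1 healthy library was left out. Ms4a7, a tetraspan protein used as a border marker, stood at 1338 and 1333 CPM in border cells and 18.7 and 9.37 in microglia (6.597 ± 0.32, adjusted p = 0.000248). Without replicate 1 its value was 7.13 (adjusted p = 0.0508) and without replicate 2 it was 6.16 (adjusted p = 0.0761). Timd4, a receptor for phosphatidylserine on dying cells, stood at 36.4 and 37.2 CPM against 0.398 and 0.253 (6.64 ± 0.28). Its adjusted p was 0.119 without replicate 1 and 0.0966 without replicate 2. Cd209f, a lectin of the DC-SIGN family, stood at 275 and 211 CPM against 3.44 and 0.169 (6.88 ± 0.79, adjusted p = 0.0349), and was no longer called without replicate 1 (adjusted p = 0.0825) or replicate 2 (adjusted p = 0.112). Ccn1, a matricellular protein, was high in border cells of both libraries but unequal, at 985 and 344 CPM against 10.5 and 1.10 (7.02 ± 0.50).

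**Figure D1:**
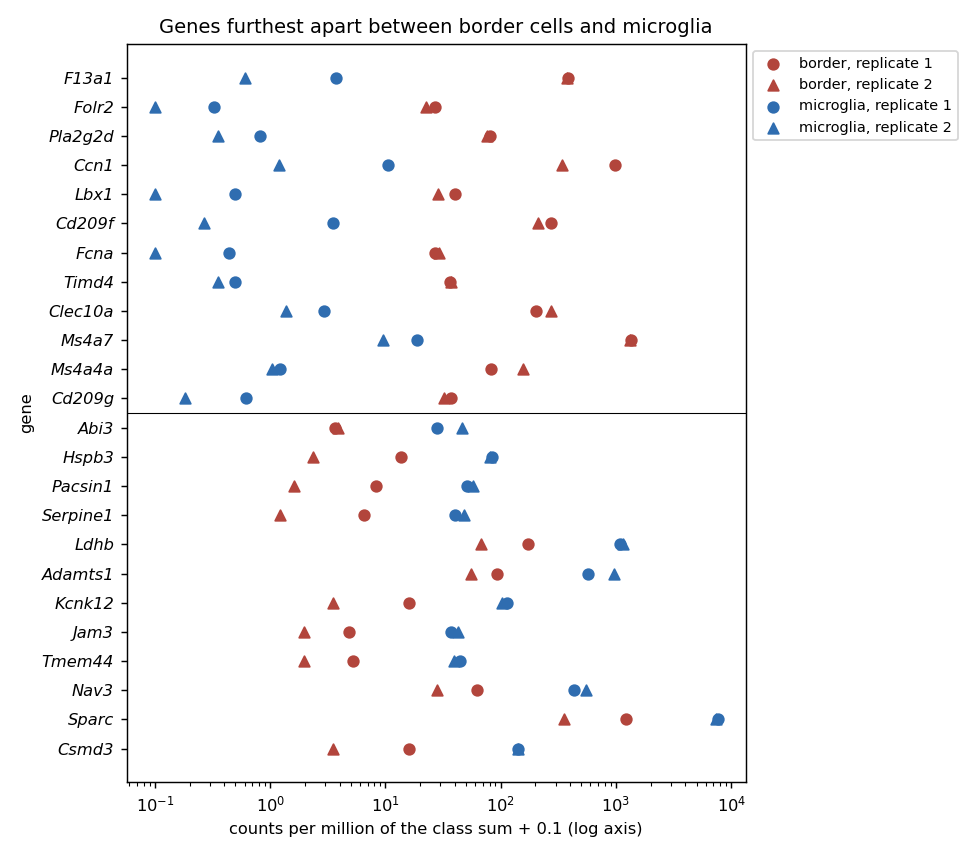
Summed level of the 24 genes furthest apart, in CPM plus 0.1 on a log axis, for border cells (red) and microglia (blue) of healthy replicate 1 (circles) and replicate 2 (triangles). The genes were chosen for classes that do not overlap, and the border points of the lower block lie further apart between replicates than its microglial points for genes such as Csmd3 (16.0 and 3.39 against 140 and 141).

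The genes that lay furthest toward microglia differed by less, and their size depended on the library. Sparc, a matrix protein, stood at 7608 and 7431 CPM in microglia and at 1226 and 353 CPM in border cells (-3.52 ± 0.56, adjusted p = 0.018; without replicate 2, -2.64, adjusted p = 0.0505). Nav3, a microtubule-binding protein, stood at 434 and 553 CPM in microglia against 62.0 and 27.8 in border cells (-3.48 ± 0.50, adjusted p = 0.0304). Adamts1, a secreted protease, stood at 569 and 957 CPM against 92.7 and 55.3 (-3.34 ± 0.50, adjusted p = 0.0302). For all 3 genes the level in border cells was higher in replicate 1 than in replicate 2. A difference of over 3 on the log2 scale was reached by 331 called genes toward border cells (2.82% of those tested) and by 110 toward microglia (0.939%).

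Sall1, Siglech and Selplg stood in border cells above their level in lymphoid barcodes in replicate 1 and below it in replicate 2. Barcodes with at least 5 lymphoid UMIs and at most 20 UMIs over M and B together (136 and 129 in replicates 1 and 2) served as cells that should lack microglial genes. The limit on M and B itself holds down the microglial RNA of these barcodes. Those of replicate 1 also held RNA of neutrophil markers (9260 CPM, against 154 in replicate 2) and endothelial markers (5723 CPM, against 1803). Whether free RNA, doublets or expression set these levels was not tested. Sall1 in border cells stood at 18.7% and 6.21% of its microglial level, and in lymphoid barcodes at 8.81% and 7.54%. Siglech stood at 20.9% and 9.19% in border cells and 8.46% and 10.8% in lymphoid barcodes, and Selplg at 18.4% and 7.72% against 14.9% and 16.1%. In replicate 2 these 3 genes stood in border cells below their lymphoid level.

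Other genes used to mark microglia stood in border cells above their lymphoid level. Cx3cr1, the fractalkine receptor, stood at 28.3% and 16.7% of its microglial level against 8.68% and 10.7% in lymphoid barcodes. Csf1r stood at 60.3% and 53.4% and Fcrls, an Fc receptor-like protein, at 71.2% and 65.0%, and Fcrls stood at 8.95% and 6.68% in lymphoid barcodes. C1qa, a chain of complement C1q, stood at 94.0% and 87.0% of the microglial level. Ltc4s, leukotriene C4 synthase, was at 127% and 112%, at 727 and 576 CPM in border cells and 573 and 516 in microglia (0.23 ± 0.15, adjusted p = 0.258). Fcrls missed the threshold at -0.57 ± 0.18 (adjusted p = 0.0519), and Cmklr1, a chemerin receptor on the microglial list, was higher in border cells by 0.42 ± 0.09 (adjusted p = 0.0138; 0.15 without replicate 1 and 0.213 without replicate 2). P2ry12, a purine receptor widely used for microglia, was low in this table, at 8.71 and 24.2 CPM in microglia and 1.96 and 4.51 in border cells (-2.31 ± 0.27; without replicate 2, -2.15, adjusted p = 0.0652).

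**Figure D2:**
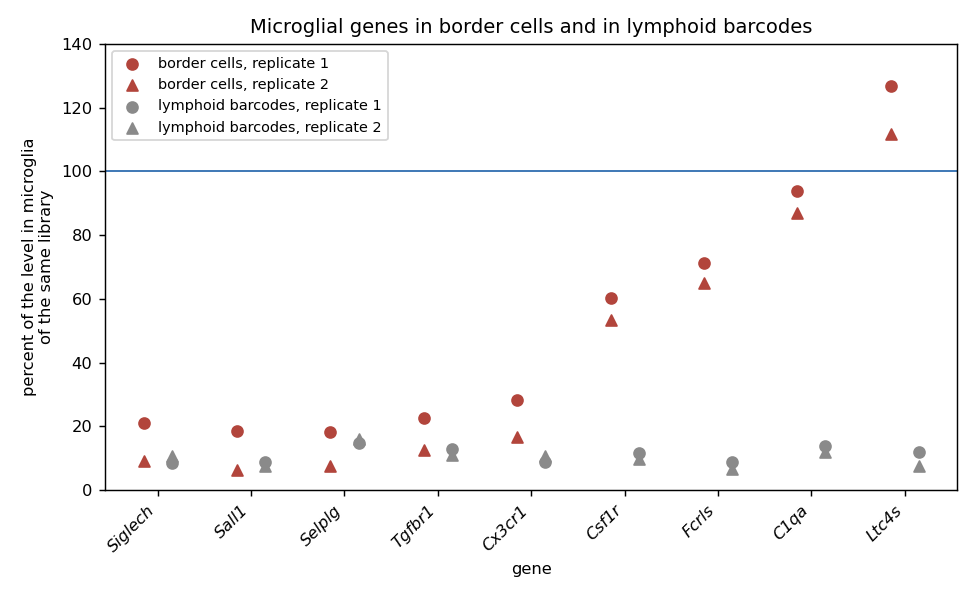
Level of 9 genes in border cells (red) and lymphoid barcodes (grey) as a percent of the level in microglia of the same library, for replicate 1 (circles) and replicate 2 (triangles), with the microglial level as the line at 100. Siglech, Sall1 and Selplg lie above the lymphoid points in replicate 1 and below them in replicate 2. Csf1r, Fcrls, C1qa and Ltc4s lie above 50% in both replicates.

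Shares of cells with a UMI were compared after thinning every cell to 3000 UMIs. Ms4a7 was found in 94.7% and 88.2% of border cells, 2.3% and 1.2% of microglia and 3.9% and 3.2% of lymphoid barcodes, so the microglial share was below the lymphoid one. The lymphoid share rests on 3 barcodes in each library. Without thinning these shares were 96.2% and 90.7%, 4.4% and 2.3%, and 5.9% and 8.5%. Sall1 was found in 61.7% and 65.8% of microglia, 9.3% and 6.1% of border cells and 11.8% and 4.3% of lymphoid barcodes. Cx3cr1 was found in 57.7% and 53.2% of border cells against 22.4% and 28.0% of lymphoid barcodes. Lymphoid barcodes were shallower, with medians of 3132.5 and 3671 UMIs, and thinning left out 121 and 39 border cells, 637 and 322 microglia and 60 and 36 lymphoid barcodes.

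Of 28 transcription factors tested, 7 were higher in border cells and 10 in microglia, against 19.8% and 15.9% of all genes. Sall1, which is required for microglial identity, stood at 344 and 400 CPM in microglia and 64.3 and 24.8 in border cells (-3.11 ± 0.52, adjusted p = 0.0446). Once the class II-high cells of both classes, described further on, were left out, it was no longer called. Bhlhe41 stood at 239 and 310 CPM in microglia against 79.4 and 73.7 (-1.84 ± 0.15), and Smad3, a transducer of TGF-beta, at 47.1 and 51.5 against 17.013 and 19.6 (-1.45 ± 0.13). Maf, a factor of tissue macrophages, stood at 632 and 1176 CPM in border cells and 214 and 415 in microglia (1.52 ± 0.15, adjusted p = 0.000612). Maf was higher in border cells of each library, and the classes did not overlap, as in 62.2% of all genes tested. Tfec (2.61 ± 0.18), Nfatc2 (1.40 ± 0.11) and Irf7 (2.55 ± 0.20) were higher in border cells. Spi1, which encodes PU.1, was at 568 and 495 CPM against 626 and 531 (-0.14 ± 0.14, adjusted p = 0.479), and Runx1 differed by 0.13 ± 0.10 (adjusted p = 0.342).

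Genes of the TGF-beta pathway, which microglia need for their identity, were mostly higher in microglia. Of 15 members tested 11 were higher in microglia and 2 in border cells, against 15.9% and 19.8% of all genes. The list's median was -0.91 against -0.01 over all genes. The receptor Tgfbr1 stood at 1196 and 1469 CPM in microglia and 271 and 185 in border cells (-2.58 ± 0.25, adjusted p = 0.0012), whereas Tgfbr2 did not pass (0.31 ± 0.11, adjusted p = 0.0751). The ligand Tgfb1 stood at 450 and 386 CPM against 350 and 269 (-0.46 ± 0.13, adjusted p = 0.0339; 0.103 without replicate 1 and 0.302 without replicate 2). The feedback inhibitors Smad7, at 799 and 919 CPM against 149 and 83.5, and Skil, at 356 and 384 against 104 and 75.2, were both higher in microglia. The integrin chains Itgav (-1.66 ± 0.16) and Itgb5 (-2.16 ± 0.21), which can release latent TGF-beta, were also higher there. Nrros, which holds latent TGF-beta on the cell surface, went the other way at 340 and 287 CPM in border cells against 170 and 125 (1.08 ± 0.11). Without replicate 1 the list had 8 members higher in microglia and without replicate 2 it had 9.

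Scavenger and lectin receptors were mostly higher in border cells, where the share of all genes was 19.8% (15.9% toward microglia). Of 31 tested, 16 were higher in border cells and 4 in microglia, with a median of 2.35, and 2 were higher in microglia when either replicate was left out. Stab1, stabilin 1, which clears modified lipoproteins, stood at 1302 and 1159 CPM against 140 and 87.9 (3.45 ± 0.19, adjusted p = 9.78e-05). Colec12, a collectin with a scavenger domain, stood at 610 and 624 CPM against 34.9 and 33.5 (4.15 ± 0.14). Cd36, a receptor for lipids, stood at 217 and 308 CPM against 7.42 and 5.82 (5.21 ± 0.24), and Msr1, scavenger receptor A, at 26.0 and 34.2 against 0.768 and 1.35 (4.88 ± 0.25). In each of these 4 genes both border libraries lay above both microglial ones, while 62.2% of all genes tested had classes that did not overlap. Fcgr2b, the inhibitory Fc receptor, was higher in border cells at 759 and 843 CPM against 158 and 150 (2.35 ± 0.15). Fcgr3 stood at 1395 and 1291 CPM against 1426 and 1268 (-0.02 ± 0.16, adjusted p = 0.939), and Cd68 at 905 and 807 against 682 and 704 (0.29 ± 0.16, adjusted p = 0.197). Of 11 Ms4a-family genes tested 10 were higher in border cells, with Ms4a6b at 983 and 1095 CPM against 164 and 148 (2.72 ± 0.16).

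Complement and the TAM and Trem2 genes of phagocytosis showed mixed directions. The shares of all genes were 19.8% toward border cells and 15.9% toward microglia. The 3 chains of C1q did not pass, with C1qa at 11250 and 9066 CPM in border cells and 11973 and 10416 in microglia (-0.16 ± 0.22, adjusted p = 0.604). The anaphylatoxin receptor C5ar1 stood at 286 and 247 CPM against 31.1 and 19.0 (3.41 ± 0.15), and properdin (Cfp) at 181 and 210 against 7.57 and 4.98 (4.89 ± 0.22). Cd55, which blocks complement on the cell surface, stood at 24.2 and 35.4 CPM against 0.455 and 0.591 (5.76 ± 0.27). In all, 8 of 17 complement genes were higher in border cells and 2 in microglia, and 5 of 15 were higher in border cells without replicate 1 and also without replicate 2. Of 14 TAM, Trem2 and phagocytosis genes tested, 8 were higher in microglia and 4 in border cells, the latter 2 without replicate 2. The receptor Mertk stood at 592 and 628 CPM in microglia against 320 and 252 (-1.12 ± 0.16), and its ligand Gas6 at 108 and 173 CPM in border cells against 15.3 and 23.3 (2.83 ± 0.10). The other ligand of that receptor, Pros1, was higher in microglia (-1.03 ± 0.11). Trem2, a lipid-sensing receptor, stood at 3836 and 3125 CPM in microglia against 1285 and 911 (-1.70 ± 0.19), and its adaptor Tyrobp did not pass (0.15 ± 0.19, adjusted p = 0.558).

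Interferon-stimulated genes were higher in border cells throughout the list. All 20 tested were called in that direction, against 19.8% of all genes, with a median of 2.44. The count was 19 without replicate 1, 18 without replicate 2 and 18 by DESeq2. Ifitm3, which restricts viral entry, stood at 1296 and 1243 CPM in border cells and 139 and 86.4 in microglia (3.51 ± 0.21, adjusted p = 0.000137). Oasl2 stood at 55.5 and 65.8 CPM against 4.84 and 3.21 (3.83 ± 0.23), Rtp4 at 160 and 123 against 39.3 and 23.035 (2.19 ± 0.12), and Zbp1, a sensor of nucleic acids, at 25.4 and 40.3 against 4.15 and 5.91 (2.67 ± 0.19). Both border libraries were above both microglial ones for these 4 genes, while 62.2% of all genes tested had classes that did not overlap. For Ifitm3, 20.5% of its words are shared with other genes. Rsad2 was the member whose call was lost without either library (adjusted p = 0.123 without replicate 1 and 0.31 without replicate 2). Lymphoid barcodes held Ifitm3 at 390 and 140 CPM, above microglia in both libraries.

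Promoter windows of RefSeq (GRCm38.p6, 250 bases before to 50 after the gene's start) were found for 8930 of the 11720 genes tested. A pair of GAAA words with any 2 bases between them, a core of the sites that interferon regulatory factors bind, was searched on both strands. It occurred in 5.0% of 1820 windows of genes called toward border cells, in 2.84% of 1444 windows of genes called toward microglia and in 3.3% of all tested windows. Among genes further apart it occurred in 9.6% of 250 windows of those over 3 toward border cells and in 2.31% of 260 windows of those over 2 toward microglia. Over all 27025 RefSeq windows the share was 3.49%. Of the interferon list, 9 of 14 windows held it (64.3%). The windows of 3 such genes, and of Ifi207, an interferon-inducible gene are shown 5′ to 3′ on the gene's strand with the matches in capitals. A match is a description of the letters and not a bound site.
Ifitm3, chr7:141010695-141010994, minus strand: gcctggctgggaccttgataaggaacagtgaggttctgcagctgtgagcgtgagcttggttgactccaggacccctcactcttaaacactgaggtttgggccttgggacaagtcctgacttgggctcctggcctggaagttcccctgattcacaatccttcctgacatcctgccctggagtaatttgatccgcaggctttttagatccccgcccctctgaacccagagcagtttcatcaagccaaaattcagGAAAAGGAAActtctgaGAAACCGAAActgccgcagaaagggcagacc
Isg15, chr4:156200769-156201068, minus strand: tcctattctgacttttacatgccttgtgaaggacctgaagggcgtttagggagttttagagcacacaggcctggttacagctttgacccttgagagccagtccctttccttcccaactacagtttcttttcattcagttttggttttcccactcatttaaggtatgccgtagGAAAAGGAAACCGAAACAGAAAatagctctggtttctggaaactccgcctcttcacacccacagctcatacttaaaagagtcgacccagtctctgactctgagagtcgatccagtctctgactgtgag
Ifit3, chr19:34583279-34583578, plus strand: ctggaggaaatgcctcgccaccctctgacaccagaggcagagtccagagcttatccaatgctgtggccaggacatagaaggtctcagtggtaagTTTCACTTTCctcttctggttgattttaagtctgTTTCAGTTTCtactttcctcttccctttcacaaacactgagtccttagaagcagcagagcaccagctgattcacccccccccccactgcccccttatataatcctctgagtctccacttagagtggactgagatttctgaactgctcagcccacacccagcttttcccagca
Ifi207, chr1:173741760-173742059, minus strand: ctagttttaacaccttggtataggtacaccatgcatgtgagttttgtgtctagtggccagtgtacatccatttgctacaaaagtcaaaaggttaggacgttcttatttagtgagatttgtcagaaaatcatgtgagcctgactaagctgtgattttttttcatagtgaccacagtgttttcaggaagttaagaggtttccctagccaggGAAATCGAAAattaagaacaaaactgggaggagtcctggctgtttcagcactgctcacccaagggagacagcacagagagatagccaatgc

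In these windows Ifitm3 held 2 matches that start 3 and 20 bases after the gene's start, and Isg15 held 3 overlapping matches 78, 72 and 66 bases before it. Ifit3 held 2 matches on the other strand, 156 and 122 bases before the start, and Ifi207 held 1 match 41 bases before it. Isg15 stood at 68.8 and 126 CPM in border cells and 22.4 and 20.8 in microglia (2.06 ± 0.28). Ifit3 stood at 77.8 and 126 CPM against 18.9 and 16.5 (2.43 ± 0.25), and 61.8% of its words are shared with other genes such as Ifit3b. For comparison, the AP-1 letters TGANTCA stood in 6.21% of the windows of all genes called toward border cells, 3.88% of those toward microglia and 4.68% of all tested. They stood in 9.2% of windows of genes over 3 toward border cells and 5.77% of genes over 2 toward microglia. The PU.1 letters GAGGAAGT stood in 3.52% toward border cells, 4.57% toward microglia and 3.45% of all tested. The letters TGCTGAC, part of the site of MAF factors, stood in 3.57%, 3.32% and 3.56% of the same sets, in 6.4% of windows of genes over 3 toward border cells and in 2.69% of genes over 2 toward microglia. Over all RefSeq windows the AP-1 letters stood in 7.93%, the PU.1 letters in 3.28% and the MAF letters in 4.58%. Timd4 is one of the genes with the MAF letters, 45 bases before its start, shown in capitals on its complement strand.
Timd4, chr11:46810549-46810848, plus strand: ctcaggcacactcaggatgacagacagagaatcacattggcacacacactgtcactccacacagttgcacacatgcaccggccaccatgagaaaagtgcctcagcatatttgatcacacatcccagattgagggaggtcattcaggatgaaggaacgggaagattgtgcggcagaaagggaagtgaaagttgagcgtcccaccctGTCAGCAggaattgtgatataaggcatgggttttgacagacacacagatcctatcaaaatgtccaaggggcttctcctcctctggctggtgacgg

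Genes of iron and heme handling were mostly higher in border cells, where the share of all genes was 19.8% (15.9% toward microglia). Of 16 tested, 10 were higher in border cells and 2 in microglia, with a median of 1.20, and none was higher in microglia when either replicate was left out. Blvrb, biliverdin reductase B, stood at 981 and 726 CPM against 116 and 69.4 (3.21 ± 0.16), and Blvra at 201 and 134 against 54.4 and 41.5 (1.78 ± 0.10). The iron exporter ferroportin (Slc40a1) stood at 264 and 267 CPM against 91.0 and 111 (1.39 ± 0.11), and the heme transporter Slc48a1 at 90.9 and 67.0 against 41.9 and 22.7 (1.29 ± 0.14). Hmox1, heme oxygenase 1, did not pass, and microglia stood at 90.3 CPM in replicate 1 and 489 in replicate 2, against 480 and 580 in border cells (1.31 ± 0.79, adjusted p = 0.344). The ferritin gene Fth1 stood at 11913 and 9598 CPM against 3836 and 2619 (1.74 ± 0.22).

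Among lipid genes, Apoe, the main lipoprotein of the brain, stood at 1756 and 2457 CPM in border cells and 199 and 204 in microglia (3.35 ± 0.20, adjusted p = 0.000121; without replicate 2, 3.14, adjusted p = 0.0574). Plin2, which coats lipid droplets, stood at 41.3 and 60.6 CPM against 11.521 and 17.1 (1.81 ± 0.14). Toward microglia lay Lrp1 (-1.71 ± 0.15) and Lpcat2 (-2.50 ± 0.20). In all, 9 of 20 lipid genes were higher in border cells and 2 in microglia, but only 4 were higher in border cells without replicate 2. Of 23 cathepsin and lysosomal genes, 4 were higher in border cells, near the 19.8% of all genes, and 9 in microglia, where the share of all genes was 15.9%. Lyz2, lysozyme, stood at 7925 and 7731 CPM in border cells against 636 and 502 (3.77 ± 0.23), with 32.8% of its words shared with other genes. Cst3, the cathepsin inhibitor cystatin C, was the most abundant of the list in microglia at 87831 and 76466 CPM against 21822 and 10854 (-2.43 ± 0.33). Ctsd (-1.61 ± 0.12) and Ctsf (-1.28 ± 0.13) were higher in microglia, and Ctsb, at 4253 and 4216 CPM against 1993 and 1927, was higher in border cells (1.09 ± 0.19).

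Chemokines showed high border levels that differed between the libraries. The shares of all genes called were 19.8% toward border cells and 15.9% toward microglia. Of 19 chemokine and receptor genes tested, 11 were higher in border cells and 3 in microglia, and the count toward border cells was 5 without replicate 1 and 5 without replicate 2. Ccl24, an eotaxin, stood at 410 and 532 CPM against 20.7 and 21.2 (4.46 ± 0.14, adjusted p = 2.52e-05), but its adjusted p was 0.152 without replicate 1 and 0.191 without replicate 2. Ccl12, a ligand of Ccr2, stood at 1664 and 1047 CPM against 102 and 129 (3.51 ± 0.30). Ccl7 stood at 1241 and 485 CPM against 18.4 and 18.9 (5.39 ± 0.50). Ccl4, a chemokine of activated macrophages, stood at 1395 and 1933 CPM in microglia against 568 and 531 (-1.60 ± 0.20). Border libraries lay above microglial ones for Ccl24, Ccl12 and Ccl7 and below them for Ccl4. The classes did not overlap in 62.2% of all genes tested.

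Of 20 growth factor genes 10 were higher in border cells and 5 in microglia, against 19.8% and 15.9% of all genes, and the border count was 6 without replicate 2. Igf1 stood at 405 and 507 CPM against 17.6 and 23.8 (4.45 ± 0.13, adjusted p = 2.48e-05; 0.076 without replicate 1 and 0.0874 without replicate 2). Gfra2, a receptor for neurturin, stood at 72.0 and 77.5 CPM against 1.36 and 0.759 (5.97 ± 0.23), Epor, the erythropoietin receptor, at 58.1 and 47.0 against 6.12 and 4.13 (3.33 ± 0.17), and Pdgfc at 18.2 and 26.3 against 0.597 and 0.928 (4.85 ± 0.29). Csf1r was higher in microglia at 4737 and 4520 CPM against 2858 and 2416 (-0.83 ± 0.20, adjusted p = 0.0172). Of 24 integrin and adhesion genes, 6 were higher in border cells, which is near the share of all genes, and 12 in microglia. Itga6 (-1.71 ± 0.15) and Cd9 (-2.33 ± 0.18) were higher in microglia. Vcam1 stood at 273 and 164 CPM in border cells against 12.8 and 6.41 (4.50 ± 0.12), with adjusted p of 0.0618 without replicate 1 and 0.0707 without replicate 2. Of 7 purinergic genes tested, 2 were higher in border cells and 3 in microglia, and without replicate 2 there was 1 in microglia. The ATP-gated channel P2rx4 stood at 326 and 265 CPM in border cells against 78.5 and 51.5 (2.18 ± 0.12), and Entpd1, which breaks down ATP, at 337 and 450 in microglia against 174 and 182 (-1.14 ± 0.14).

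**Figure D3:**
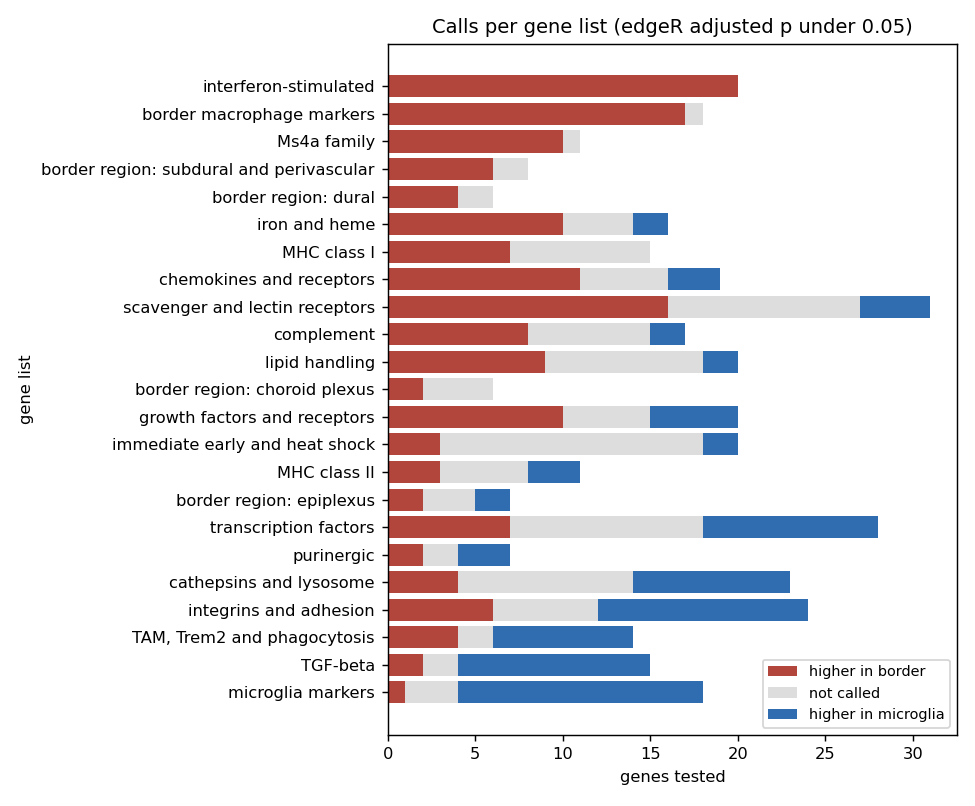
Number of genes tested in each of 23 lists that edgeR called higher in border cells (red), higher in microglia (blue) or neither (grey) at an adjusted p under 0.05, with lists on the vertical axis and genes on the horizontal one. The interferon-stimulated list is red for all 20 genes, and the TGF-beta list has 11 blue genes of 15.

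Among immediate early and heat shock genes, Fos and Hspa1a, chosen after their values were seen, differed between the libraries in both classes. Fos stood at 6751 CPM in border cells and 6124 in microglia of replicate 1, and at 2118 and 1973 in replicate 2. Hspa1a ran the other way, at 1051 and 532 CPM in replicate 1 and 3448 and 3772 in replicate 2. Of 20 genes in this list 3 were higher in border cells and 2 in microglia, which became 2 and 4 without replicate 1 and 5 and 1 without replicate 2. Over all genes tested 19.8% were higher in border cells and 15.9% in microglia, so the counts of this list were not above those shares. The pairing by library sets each border sum against microglia of the same library.

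Region-specific markers of border macrophages were unevenly called. Of 6 dural markers 4 were higher in border cells, and of 8 subdural and perivascular markers 6, against 19.8% of all genes. Folr2, P2rx7, Egfl7, Ednrb and Cd209f among them were already counted with the border macrophage markers above. Border cells low in the border genes of the rule are not in the class. Of 6 choroid plexus markers 2 were higher in border cells and of 7 epiplexus markers 2, which in lists this small is near that share. Another 2 epiplexus markers were higher in microglia, where the share of all genes was 15.9%. DESeq2 called 6 dural, 7 subdural and perivascular, 4 choroid plexus and 2 epiplexus markers higher in border cells. Of the epiplexus markers 1 was higher in border cells without replicate 1 and 0 without replicate 2. Clec4n, dectin 2, stood at 357 and 362 CPM in border cells against 6.71 and 2.28 (6.25 ± 0.50). Mgl2, a galactose-type lectin of the dura list, stood at 610 and 555 CPM against 22.3 and 7.003 (5.42 ± 0.54). Ednrb, the endothelin B receptor, stood at 136 and 254.7 CPM against 2.73 and 2.62 (5.99 ± 0.25). Ccr2 on the choroid plexus list was low and unequal in border cells, at 4.50 CPM in replicate 1 and 33.1 in replicate 2 (1.52 ± 0.47, adjusted p = 0.0657). Retnla, a secreted resistin-like protein, reached 712 and 1645 CPM in border cells against 15.6 and 4.13 and did not pass (6.82 ± 1.27, adjusted p = 0.0734).

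MHC class II RNA, summed over H2-Aa, H2-Ab1, H2-Eb1 and Cd74, sat mostly in a small share of cells in both classes. In border cells that share differed between the libraries. Border cells in the highest 10% by class II RNA held 96.3% of it in replicate 1 and 95.2% in replicate 2, while 53.5% and 46.7% of border cells had none. Microglia in their highest 10% held 91.8% and 82.2% of the microglial class II RNA, and 67.8% and 53.3% of microglia had none. Cells with at least 10000 class II CPM, a threshold set after the values were seen, were 23 of 703 border cells in replicate 1 (3.27%, exact binomial 95% interval 2.09 to 4.87) and 33 of 302 in replicate 2 (10.9%, 7.64 to 15.0). The intervals of the 2 libraries do not overlap and cover counting error only, and 10 and 12 border cells lay near the threshold. Such cells were 0.827% and 0.972% of microglia. In these border cells H2-Eb1 stood at 129 CPM in replicate 1 and 7563 in replicate 2, so the threshold was set on sums of unlike make-up. How far this moved the shares was not tested.

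Sums of class II genes over all border cells include these cells. H2-Ab1 stood at 523 and 1063 CPM in border cells and 128 and 140 in microglia (2.45 ± 0.25, adjusted p = 0.00213). Without the class II-high cells of both classes, which were chosen on class II RNA and so had to take H2-Ab1 with them, the difference was -0.47. H2-Aa stood at 479 and 1234 CPM against 89.1 and 63.7 (3.32 ± 0.65, adjusted p = 0.0587). H2-Eb1 stood at only 8.21 CPM in border cells of replicate 1 and at 1277 in replicate 2, and lymphoid barcodes differed likewise, at 46.2 and 899 CPM. In total 3 of 11 class II genes were higher in border cells and 3 in microglia, against 19.8% and 15.9% of all genes, and the border count was 6 without replicate 1 and 5 without replicate 2. Those higher in microglia were H2-Oa (-2.08 ± 0.24), H2-Ob (-2.33 ± 0.40; adjusted p = 0.18 without replicate 1) and Ctss (-1.64 ± 0.22). Of 15 class I genes 7 were higher in border cells and none in microglia, with 4 higher without replicate 2 and 2 without the pairing by library. The class I gene H2-T23, chosen after its values were seen, differed between the libraries in both classes, at 28.4 and 186 CPM in border cells and 19.3 and 94.6 in microglia. Psmb9 stood at 122 and 140 CPM against 70.8 and 67.9 (0.89 ± 0.10).

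The class II-high border cells carried other RNA too, given here as a description because the cells were chosen on these values. Cd209a, a DC-SIGN lectin, stood at 628 and 577 CPM in them and at 8.016 and 10.4 CPM in the other border cells. Napsa, an aspartic protease, stood at 234 and 334 CPM against 12.3 and 25.3, and Ccr2, the receptor of recruited monocytes, at 52.3 and 156 against 2.06 and 8.58. Flt3, a receptor of dendritic cells, stood at 20.1 and 27.05 CPM against 0.617 and 0.452. These levels rest on 5 and 12 UMIs of Flt3 against 3 and 1. Zbtb46, also a marker of conventional dendritic cells, was lower in the class II-high cells, at 4.026 and 9.017 CPM against 13.977 and 15.807. That rests on only 1 and 4 UMIs of Zbtb46 against 68 and 35. Ccr7, another marker of conventional dendritic cells, was higher in them in replicate 1 only (8.053 against 0.822 CPM, from 2 against 4 UMIs). It had no UMI in them in replicate 2. Whether the class II-high cells include dendritic cells was not tested. Several genes of border macrophages were lower in the class II-high cells. Stab1 stood at 507 and 336 CPM against 1343 and 1324, and Ms4a7 at 556 and 394 against 1378 and 1521. Cd209b, also a border macrophage marker, was higher in them, at 137 and 210 CPM against 31.7 and 77.2. Lyve1 itself stood at 471 and 104 CPM against 1119 and 1159.

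**Figure D4:**
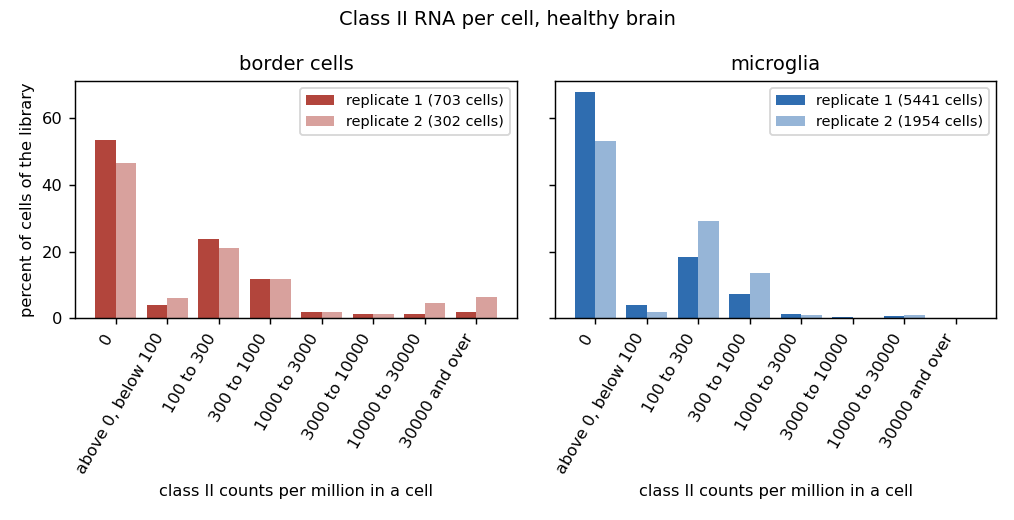
Percent of border cells (left, red) and microglia (right, blue) of each healthy library by class II CPM in the cell, in unequal bins named on the horizontal axis, dark for replicate 1 and light for replicate 2. The bin at 0 holds 53.5% and 46.7% of border cells, and the bins from 10000 upward hold 3.27% of border cells in replicate 1 and 10.9% in replicate 2.

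Border cells were also split by Lyve1, a hyaluronan receptor of macrophages along vessels, into 506 and 194 cells with a UMI and 197 and 108 without. The cells without one were shallower, with medians of 4617 and 5445 UMIs against 7005.5 and 8454, so a missing UMI does not show that Lyve1 was absent. Fits that left out 1 healthy library also held the tumour libraries, and took the lone healthy library to vary like them. Of 8592 genes tested 91 were called, 31 higher with Lyve1 (0.361%) and 60 higher without (0.698%), or 1.06% in all. The count was 38 without replicate 1, 6 without replicate 2, 1 without the pairing by library and 51 by DESeq2, which gave no adjusted p for 80 of the 91. Cd209f stood at 325 and 280 CPM with Lyve1 and 58.1 and 28.6 without, with 36.3% of its words shared with other genes (2.75 ± 0.19, adjusted p = 0.00036; 0.999 without replicate 1 and 1 without replicate 2). The value of Cd209f was 3.22 without replicate 1 and 2.46 without replicate 2. Cd209g stood at 43.4 and 43.1 CPM against 8.31 and 2.73 (2.84 ± 0.38, adjusted p = 0.0108). Toward cells without Lyve1 lay Cd226 at 26.0 and 32.7 CPM against 0.482 and 2.60 (-4.53 ± 0.55, adjusted p = 0.00625) and Cd72 at 28.0 and 46.3 against 3.61 and 4.68 (-3.14 ± 0.36, adjusted p = 0.00444), the latter with 38.5% of its words shared. Of the class II-high cells 12 of 23 and 7 of 33 had a UMI of Lyve1, and they are not removed from these values. Without class II-high cells the count was 169.

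The same rule was then applied to the tumour libraries, which it had not been made on. It found 75 and 43 border cells in the control tumours and 352 and 217 in the Rbpj-deleted ones, with 307, 254, 1270 and 758 microglia. Of 9854 genes tested 3281 were called, 1703 higher in border cells (17.3%) and 1578 higher in microglia (16.0%), or 33.3% in all. Of the 2322 genes higher in healthy border cells 2107 were tested there, 1329 were called in the same direction (63.1%) and 8 in the opposite one. Of the 1864 genes higher in healthy microglia 1683 were tested, 1132 were called in the same direction (67.3%) and 3 in the opposite one. Those 3 were Batf3, Lmo4 and Tbxas1, named after their values were seen. The fits share no library, but the same genes cut the cells in both.

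Among the 8 genes furthest toward border cells in tumours, F13a1, Pla2g2d and Clec10a were also among the 12 in healthy brain. F13a1 stood at 190, 81.2, 89.1 and 124 CPM in border cells of control replicates 1 and 2 and Rbpj-deleted replicates 1 and 2, and at 1.64, 3.15, 1.51 and 5.30 in microglia (5.40 ± 0.31, adjusted p = 1.38e-05). The border marker Stab1 stood at 384, 437, 541 and 513 CPM against 67.6, 61.9, 41.6 and 84.7 (2.97 ± 0.18). Nav3, among the furthest toward microglia in both, stood at 220, 270, 217 and 138 CPM in microglia against 2.45, 12.98, 15.8 and 2.503 (-4.53 ± 0.34). No border library overlapped a microglial one for these 3 genes, and for F13a1 and Nav3 this was a condition of being named. Of the border macrophage markers 14 of 17 tested were higher in tumour border cells, of the microglial markers 15 of 17 were higher in tumour microglia, and of the interferon-stimulated genes 19 of 20 were higher in border cells, with a median of 0.87. Class II-high cells were 45 of 75, 35 of 43, 299 of 352 and 141 of 217 tumour border cells, a larger part than in healthy brain, and their part in the tumour values was not tested.

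The difference between the classes was tested for a change between tumour and healthy libraries. Of 10031 genes 288 had a border-minus-microglia difference that was lower in tumours (2.87%) and 45 one that was higher (0.449%). Of those 288 genes 267 were called higher in border cells in healthy brain. Of those 45 genes 32 were called higher in microglia there. The healthy difference enters both the healthy call and the change, so these overlaps are in part built in. Of all genes tested in healthy brain 19.8% were called toward border cells and 15.9% toward microglia. Genes with a lower and with a higher difference in tumours together made 333, or 3.32%. The count was 92 without healthy replicate 2 and 157 without Rbpj-deleted replicate 1. Cd36 stood at 217 and 308 CPM in healthy border cells and 107, 143, 79.2 and 144 in tumour ones, while microglia stood at 7.42 and 5.82 in healthy brain and at 51.5, 45.1, 53.2 and 64.0 in tumours (change of the difference -4.09 ± 0.33, adjusted p = 0.0012). Ifi207 stood at 428 and 527 CPM in healthy border cells and 318, 360, 346 and 263 in tumour ones, against 9.10 and 7.09 in healthy and 86.0, 76.3, 83.4 and 139 in tumour microglia (-4.01 ± 0.41, adjusted p = 0.0044). In both genes the tumour microglia lay above every healthy microglial library, and the border cells lay above them. Clec10a moved by -2.30 ± 0.35 (adjusted p = 0.0097), with border cells at 159, 175, 111 and 62.1 CPM in tumours.

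Batf3, a factor of dendritic cells, changed sides. It stood at 26.2 and 41.4 CPM in healthy border cells and 71.2 and 74.6 in healthy microglia (-1.18 ± 0.16). In tumours it stood at 129, 90.9, 99.7 and 92.1 CPM in border cells and 78.9, 84.0, 83.0 and 78.6 in microglia (0.39, adjusted p = 0.027). The change of the difference was 1.57 ± 0.22 (adjusted p = 0.0037). Every tumour border library was above its own microglia and both healthy ones were below. Among list members that did not pass, the change was -0.03 ± 0.42 for Selplg and -0.02 ± 0.31 for Smad7.

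**Figure D5:**
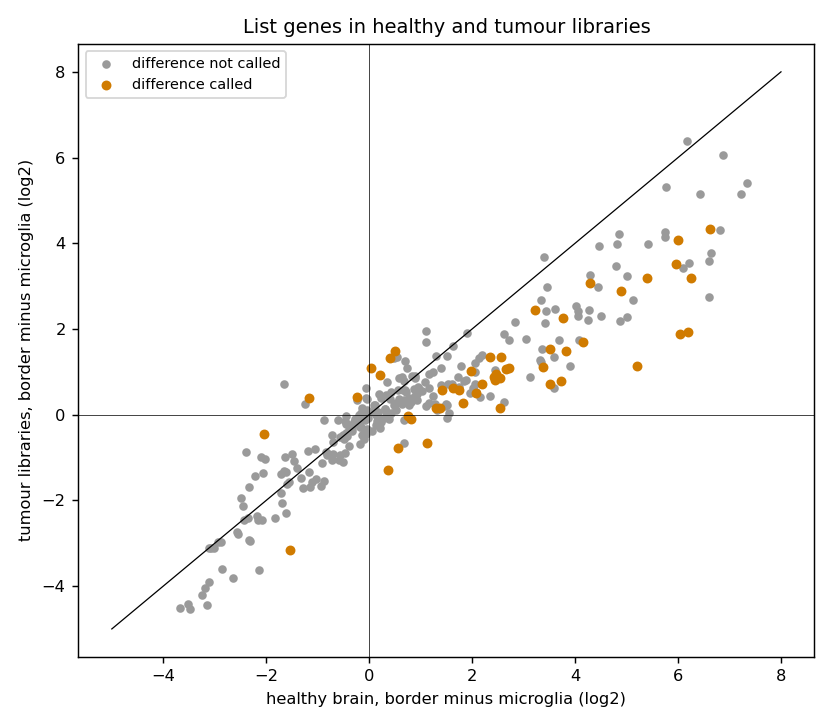
Border minus microglia on the log2 scale for 311 list genes tested in both, healthy brain on the horizontal axis and tumour libraries on the vertical axis, with the diagonal marking equal values; orange marks the 49 genes whose change was called. Of the 311 genes 282 have the same sign in both, and 42 of the 49 orange genes lie below the diagonal.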

How the data were processed

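The authors' deposited table holds 1 whole-number UMI count per gene and barcode. Per the submitters' processing notes the tools were kallisto 0.46.0 and bustools 0.39.3, and the build was mm10. The deposited barcodes had at least 1000 counts and at most 9.154% mitochondrial counts. Each barcode name carries its sample's title, which set the groups, and 19 of 27378 gene IDs had no symbol.

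Counts were summed per library and class and tested with edgeR 4.0.16 (R 4.3.3, limma 3.58.1): filterByExpr, TMM, robust quasi-likelihood fits, Benjamini-Hochberg adjustment over all genes tested, called under 0.05. The 17 genes of the rule were left out. Border and microglia of a library come from the same sorted suspension, so library was a block. Over genes, their deviations from the class means correlated at 0.549 in healthy libraries (1 value, since with 2 libraries both pairs give the same) and 0.227 to 0.517 in tumour libraries. DESeq2 1.42.0, library-size scaling, no filter, no block, other gates, depth and cell filters and leaving out each library were alternatives.

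Named genes were the 12 furthest apart in each direction (8 in other comparisons) with an adjusted p under 0.05, at least 20 CPM and no overlap of classes, and per list 4 members of smallest p. Other list members were named for their known role, or to show members that did not pass, after their values were seen. Members and lists were chosen with earlier results of these data known. Results for some genes are not reported here. Genes sharing 31-base words with other genes are uncertain. On simulated healthy counts of 11317 genes, 91.8% of changes of 2 on the log2 scale and 41.1% of changes of 1 were found, with 1 false call. The simulation gave all genes the same fixed dispersion, changed 192 genes and set library effects equal in both classes. Its results hold for those settings and give no error rate for the real counts. Lyve1 splits, thinning and promoter searches used the same gates.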

Additional observations from a re-analysis of the deposited data

Results flagged for a closer look

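For 17 genes the border-minus-microglia difference changed between healthy and tumour libraries by edgeR's interaction test at an adjusted p under 0.05, and these are the 8 furthest in each direction by the naming rule plus Clec10a. The values are changes on the log2 scale, tumour minus healthy. Lower in tumours were Igfbp5 (-5.06), Egfr (-4.3), C4b (-4.26), Cd36 (-4.09), Ifi207 (-4.01), Lcn2 (-4.01), Ccn1 (-3.79), Ube2c (-3.71) and Clec10a (-2.3). Higher in tumours were Tlr12 (2.63), Ccl5 (1.84), Slamf6 (1.71), Eng (1.59), Batf3 (1.57), Fnbp1l (1.51), Serpinb9 (1.48) and Sema6d (1.44).

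Cd36, Ifi207, Clec10a and Batf3 kept their call under every alternative run for this difference. Eng and Tlr12 lost it only without the pairing by library (adjusted p = 0.14 and 0.063). Egfr stood at 37.9 and 36.5 CPM in healthy border cells and at 12.3, 3.25, 3.55 and 3.004 in tumour ones, and lost its call without healthy replicate 2 (-3.88, adjusted p = 0.057) or Rbpj-deleted replicate 1 (-3.79, adjusted p = 0.105). C4b lost it without Rbpj-deleted replicate 1 (adjusted p = 0.063), and 48.3% of its words are shared with C4a. Ccl5, a chemokine, stood at 6.84 and 4.51 CPM in healthy border cells and 900, 831, 1526 and 1658 in tumour ones, against 11.9 and 7.003 and then 282, 577, 759 and 894 in microglia. Its call was lost without healthy replicate 1 (adjusted p = 0.156) or 2 (0.0927) and without Rbpj-deleted replicate 1 (0.0541). Slamf6, Sema6d and Serpinb9 were lost without either healthy replicate and without Rbpj-deleted replicate 1, and Sema6d also without control replicate 2 or Rbpj-deleted replicate 2. Fnbp1l (adjusted p = 0.0549) and Igfbp5 (0.209) were lost without healthy replicate 1, and Lcn2 without Rbpj-deleted replicate 1 (0.181). Ube2c was lost without healthy replicate 2 (0.311), control replicate 2 or Rbpj-deleted replicate 2. Apart from Cd36, Ifi207, Clec10a and Batf3, all were lost without the pairing, Ccn1 also under a stricter gate, C4b also without low-quality barcodes, and Ccl5 under both. The cause of these losses was not tested.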

How the results depend on the processing

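Without the replicate block, that is without pairing by library, the calls were 2216 in healthy brain, 1935 in tumours, 38 for the tumour-minus-healthy difference and 1 for Lyve1. DESeq2 called 2552 in healthy brain (2463 shared) and 51 for Lyve1. Leaving out 1 library gave 1954 to 2468 in healthy brain, 92 to 321 for the difference and 6 to 38 for Lyve1. Lyve1 calls were 153 with library size alone, where the share higher with Lyve1 moved from 34.07% to 43.79%, 150 without low-quality and index-hopped barcodes, 170 in cells of 4000 to 8000 UMIs, 345 with no filter and 169 without class II-high cells, an alternative added after seeing the data. The mean border share was 8.50% in cells of 4000 to 8000 UMIs and 18.9% without cells carrying other-lineage UMIs. Reversed values without the lymphoid limit were Ccl5 1.51, Cd79b 0.33, Cldn11 1.43 and Mog 1.87. Mbp was reversed at -0.17 without cells carrying other-lineage marker UMIs. Those reversed without class II-high cells were H2-Ab1 -0.47, H2-DMb1 -0.73, H2-DMb2 -0.47 and Itgax -1.12. The cause was not tested.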
